A study of Mus musculus with 4 samples.

Results

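Siglecf-positive neutrophils of the mouse nasal mucosa were described here from single-cell RNA counts of CD45+ cells. They were chosen on measured values: cells with at least 500 unique molecular identifiers (UMIs, 1 per captured RNA molecule), at least 200 genes and under 10% mitochondrial UMIs had to carry at least 2 UMIs of Siglecf, at least 1 UMI of Csf3r or Mmp9, and 0 UMIs of the 6 lineage genes C1qa, C1qb, C1qc, Cd3e, Cd79a and Siglech. Of 72320 cells that passed the depth filters, 2527 met the rule. They were set beside 29138 comparison cells with at least 2 UMIs of Csf3r, Cxcr2 and Il1r2 together and 0 of Siglecf. The comparison rule did not bar the 6 lineage genes, and 37.3 to 56.9% of comparison cells in a library carried at least 1 UMI of them. A second set of 15783 comparison cells with 0 of those genes, called the lineage-free comparison cells, was therefore used beside the first.

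The title given to the series names a ribavirin spray, an antiviral, in allergic rhinitis, and the study that reported the cells compared control mice with mice given allergen. Nasal mucosa was digested with enzymes and CD45+ cells, the leukocytes, were taken for 10x droplet sequencing, giving 4 libraries of C57BL/6 mice aged 8 weeks, 1 library per group, labelled as Vehicle, Ribavirin, Vehicle-OVA and Ribavirin-OVA. Ovalbumin (OVA) served as allergen, and the study's methods, which do not mention ribavirin, describe sensitisation by intraperitoneal OVA with alum followed by OVA given into the nose. The number of mice behind each library was not given in the sources used here, and with 1 library a group no difference between groups was tested. Groups of 4 values below are in the order Vehicle, Vehicle-OVA, Ribavirin and Ribavirin-OVA.

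Siglecf encodes a sialic acid-binding lectin with an inhibitory tail, best known as a surface marker of mouse eosinophils and alveolar macrophages. Neutrophils leave the bone marrow loaded with granule proteins, age within hours to days, and can take up a changed surface and transcript programme in tissue. Neutrophils with Siglec-F on the surface have been described in the mouse nasal lining and in tumours. In the mouse, eosinophils are told from neutrophils by their granule proteins (Epx, Prg2, the Ear ribonucleases) and by Ccr3 and Il5ra.

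The upstream bases of 2 genes are shown: Siglecf, which defines the cells, and Ltc4s, which stood furthest above comparison cells among genes of leukotriene and prostaglandin synthesis. Both come from RefSeq (GRCm38.p6), run 5′ to 3′ toward the gene, and hold the ETS-type hexamer GGAAGT in capitals, searched on both strands. The Siglecf run is chr7:43351091-43351340 on the plus strand and ends at the base before the gene, and its hexamer begins 22 bases before the start.
Siglecf: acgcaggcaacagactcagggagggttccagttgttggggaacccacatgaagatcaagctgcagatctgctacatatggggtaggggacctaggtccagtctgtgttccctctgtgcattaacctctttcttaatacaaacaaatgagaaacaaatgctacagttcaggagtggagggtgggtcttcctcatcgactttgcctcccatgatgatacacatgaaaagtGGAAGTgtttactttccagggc
The Ltc4s run is chr11:50238617-50238782 on the minus strand and ends at the base before the annotated gene.
Ltc4s: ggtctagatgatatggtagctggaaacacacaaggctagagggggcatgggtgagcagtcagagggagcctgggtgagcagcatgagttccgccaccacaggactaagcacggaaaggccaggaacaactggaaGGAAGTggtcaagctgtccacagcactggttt
In windows of 250 bases before 32851 RefSeq starts, 19.7% held GGAAGT on either strand. RefSeq starts were found for 6 of the 9 marker genes of these cells (9 starts). Of these 9 starts 4 held GGAAGT, and they belong to Entpd3, Ffar2, Ltc4s and Siglecf. The GATA-type letters TGATAA or AGATAA stood in 16.6% of all windows and in that of Igfbp6. TGTGGT (RUNX type) stood in 14.05% and in 1 marker window, of Ltc4s. TGANTCA (AP-1 type) stood in 6.75% and in 2 marker windows, of Entpd3 and Ffar2. TTGCNNAA (C/EBP type) stood in 9.56% and in 3 marker windows, all of Ffar2. None of these strings contains another. A match is a run of letters, not a bound site.

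The 4 libraries held 10311 to 28277 barcodes and 91742940 to 171873110 UMIs. Siglecf-positive cells had median depths of 3344, 3531, 3659 and 3783 UMIs, against 2128 to 3020.5 UMIs in lineage-free comparison cells. Their median mitochondrial share was 1.37 to 1.79%. Pairs of libraries shared 57 to 174 barcodes, and no barcode belonged to a Siglecf-positive cell in both libraries of a pair. A doublet caller marked 27, 2, 15 and 1 of the Siglecf-positive cells. A few cells were far deeper than the rest: 19, 10, 12 and 2 of them had over 3 times their library's median, and the deepest cells of the OVA libraries held 56114 and 52108 UMIs with 97 and 42 UMIs of epithelial marker genes.

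The label neutrophil was checked against marker genes that the rule did not use. S100a8 and S100a9, the calprotectin subunits that neutrophils make in great amounts, stood at 21121, 8675, 22919 and 7132 and at 40065, 17828, 47667 and 15503 CPM (UMIs of a gene summed over the cells of a library, scaled to a total of 1000000 UMIs). T-gated cells, which should lack them and so measure free RNA, had 506 to 1664 CPM of S100a8. Cxcr2, the receptor for neutrophil-attracting chemokines, stood at 1204, 1495, 1138 and 1488 CPM, and the decoy receptor gene Il1r2 at 946, 1805, 991 and 1829.5 CPM. T-gated cells had 21.9 to 65.1 CPM of Cxcr2 and 108 to 192 CPM of Il1r2. G0s2, a lipase inhibitor gene abundant in neutrophils, was at 1379, 1454, 1765 and 1159.7 CPM. Ly6g, the surface antigen used to sort mouse neutrophils, was low at 2.80, 8.92, 5.04 and 8.58 CPM, while lineage-free comparison cells held 41.6, 68.2, 46.5 and 127 CPM.

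Eosinophil granule genes were at or near 0. Epx (eosinophil peroxidase), Prg3 and Ear1 had 0 UMIs in the Siglecf-positive cells of every library, which allows levels of up to 0.701, 1.91, 0.945 and 2.86 CPM. Prg2, major basic protein, was at 0.467, 0, 1.89 and 0 CPM. Ccr3, the eotaxin receptor, stood at 3.04, 2.55, 1.26 and 2.86 CPM beside 2.50, 5.25, 3.93 and 5.24 CPM in T-gated cells, which were higher in every library but Vehicle. Il5ra had 2 UMIs in Vehicle and 0 elsewhere. Gata1, a transcription factor of eosinophil and mast cell precursors, and the mast cell genes Cpa3 and Tpsb2 were at 0 in all 4. Markers of other leukocytes were mostly low, with Apoe and the plasma cell genes as exceptions. The 5 plasma cell genes summed to 575 to 686 CPM in Siglecf-positive, 568 to 701 CPM in lineage-free comparison and 256 to 453 CPM in T-gated cells. The macrophage gene Mrc1, a mannose receptor, stood at 2.80, 10.2, 1.26 and 14.3 CPM, against 254 to 1330.1 CPM in macrophage-gated cells. Apoe made up most of the macrophage list, at 2042, 351, 1549.8 and 423 CPM, and the whole list of 10 genes summed to 670.1 to 2391.5 CPM in Siglecf-positive, 902 to 1854 CPM in lineage-free comparison and 23438 to 46512 CPM in macrophage-gated cells. The 5 T cell genes found in the files summed to 5.73 to 42.2 CPM in Siglecf-positive against 2086 to 2829 CPM in T-gated cells. C1qa, C1qb, C1qc, Cd3e and Cd79a are at 0 by the rule. The C1q genes are part of the macrophage sum and Cd3e is part of the T cell sum. The macrophage and T gates ask for these genes, so the gates set part of both gaps. The cells carried neutrophil genes, and the eosinophil granule genes were at or near 0, so the name neutrophil was kept. The word tissue rests on the source of the libraries alone, since no blood cells were profiled.

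**Figure D1:**
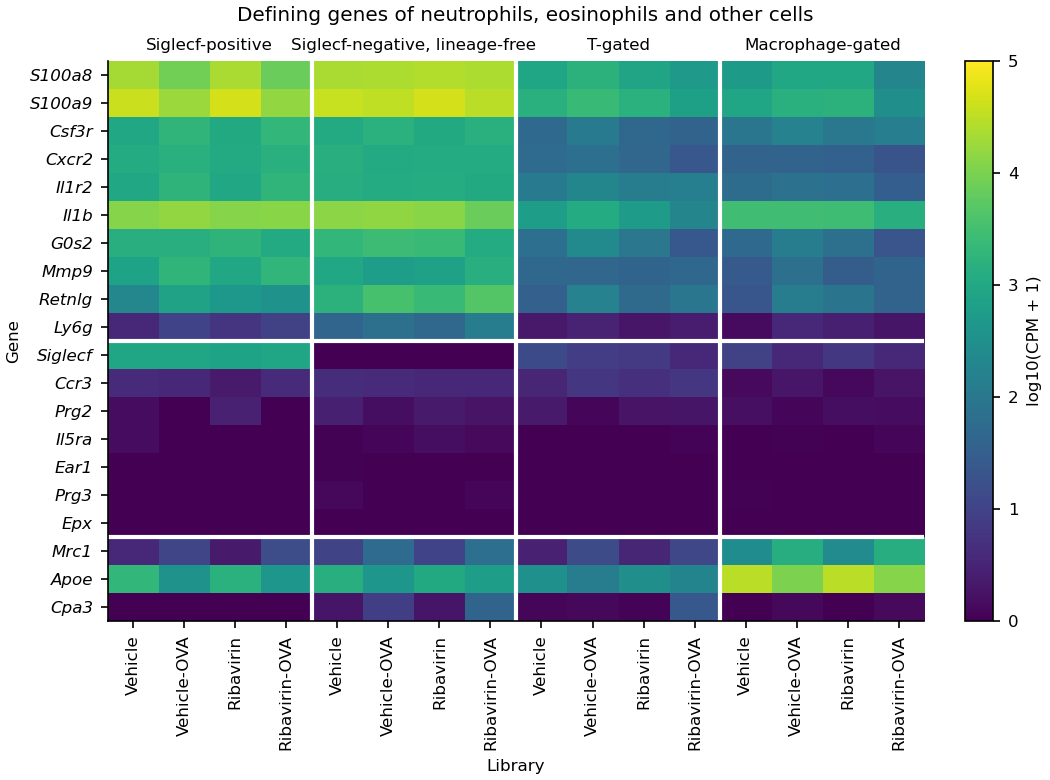
Heat map of log10(CPM + 1) for 20 defining genes (rows) in Siglecf-positive, lineage-free Siglecf-negative, T-gated and macrophage-gated cells of the 4 libraries (columns). Rows from S100a8 to Ly6g are neutrophil genes, rows from Siglecf to Epx eosinophil genes. The rules that chose the cells use Siglecf, Csf3r, Cxcr2, Il1r2 and Mmp9. Siglecf-positive cells share the neutrophil block with Siglecf-negative cells, with low Ly6g and Retnlg, and are at 0 for Ear1, Prg3 and Epx.

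In the heat map of defining genes most neutrophil rows are brighter in Siglecf-positive and Siglecf-negative cells than in T-gated and macrophage-gated cells. Ly6g is low in Siglecf-positive cells. The list of 15 neutrophil genes summed to 34139 to 79789 CPM in Siglecf-positive and 70444 to 90235 CPM in lineage-free comparison cells. The sums were 1858 to 5632 CPM in T-gated and 1290 to 4174 CPM in macrophage-gated cells, so these are not empty of neutrophil RNA. The Siglecf row of the heat map is set by the rules for the first 2 cell sets. The Csf3r, Cxcr2, Il1r2 and Mmp9 rows are set in part by them. Csf3r or Mmp9 was asked of Siglecf-positive cells, and Csf3r, Cxcr2 and Il1r2 together of Siglecf-negative cells.

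Siglecf itself ran from 2 UMIs, the least the rule allows, to 10, 15, 10 and 13 UMIs a cell, with a median of 3 in each library. The cells at the edge of the rule were many: of the cells that met the rest of the rule, 457, 146, 308 and 81 had exactly 2 UMIs of Siglecf, while 772, 376, 552 and 187 had 1 and were left out. Siglecf-positive cells held 47.1, 53.5, 49.1 and 48.5% of all Siglecf UMIs of their library. Of all passing cells with at least 2 Siglecf UMIs, 58.3 to 69.8% met the whole rule, and most of the others failed only on a lineage gene (751, 149, 458 and 160 cells). Siglecf stood at 12.1, 7.20, 6.07 and 2.74 CPM in T-gated cells.

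Siglecf-positive neutrophils were a smaller share of the nasal CD45+ cells in both OVA libraries than in their counterparts without OVA. They were 1133, 367, 775 and 252 cells, which is 4.40% (exact 95% binomial interval 4.16 to 4.66), 2.10% (1.89 to 2.32), 3.82% (3.56 to 4.09) and 2.86% (2.52 to 3.23) of passing cells. The share in Vehicle-OVA was 0.476 of that in Vehicle (95% interval 0.422 to 0.536), and that in Ribavirin-OVA was 0.748 of that in Ribavirin (0.646 to 0.863). These intervals cover counting error only, since each group is 1 library. Siglecf-negative comparison cells went the other way in the vehicle pair, from 28.0% of passing cells in Vehicle to 64.8% in Vehicle-OVA, and were 36.3 and 36.6% in Ribavirin and Ribavirin-OVA.

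The pairs were further apart among neutrophil-gated cells, those with at least 2 UMIs of Csf3r, Cxcr2 and Il1r2 together and no lineage gene. Siglecf-positive cells were 20.5% of them in Vehicle (19.4 to 21.6), 4.64% in Vehicle-OVA (4.18 to 5.13), 15.04% in Ribavirin (14.1 to 16.1) and 13.6% in Ribavirin-OVA (12.1 to 15.3). The ratio was 0.227 for the vehicle pair (0.201 to 0.255) and 0.906 for the ribavirin pair, whose interval of 0.782 to 1.05 spans equal shares. Ribavirin-OVA stood at 2.94 times the share of Vehicle-OVA (2.49 to 3.46) and Ribavirin at 0.735 of Vehicle (0.670 to 0.807). The rule asks for 2 UMIs of 1 gene, and the depth of cells differed between libraries. On cells thinned to 1000 UMIs the log2 ratio of the share of passing cells was -0.57 in the vehicle pair, against -1.07 unthinned. In the ribavirin pair it was 0.14, against -0.42, so its direction turned.

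**Figure D2:**
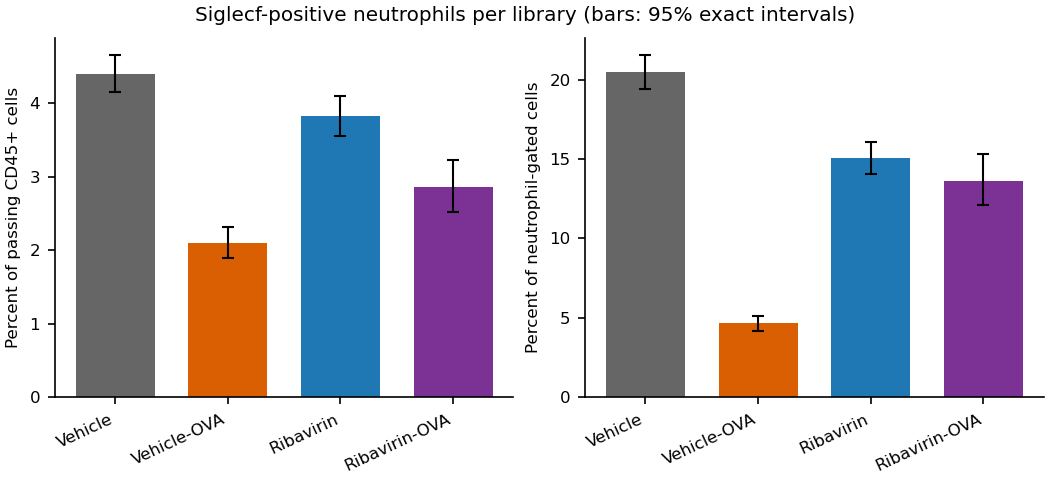
Bar charts of Siglecf-positive neutrophils as a percent of passing CD45+ cells (left) and of neutrophil-gated cells (right) in the 4 libraries, with exact 95% binomial intervals for counting error. Vehicle-OVA is lowest on both axes, at 2.10 and 4.64%, while Ribavirin-OVA is at 2.86% of passing cells and at 13.6% of neutrophil-gated cells.

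The 2 bar charts of shares differ in their denominator. Neutrophil-gated cells numbered 5455, 7848, 5092 and 1834, so Vehicle-OVA had the most of them and the lowest share that was Siglecf-positive.

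The marker genes given for these cells covered lipid mediator synthesis, surface proteoglycan, growth factor binding, proteolysis and signalling. Their differences from comparison cells are descriptions, because the cells were defined on these same counts and Siglecf and Mmp9 are part of the rule. Ltc4s encodes leukotriene C4 synthase, which joins glutathione to leukotriene A4 to start the cysteinyl leukotrienes. It stood at 489.9, 203, 481 and 304 CPM in Siglecf-positive cells, at 69.2, 11.1, 38.7 and 22.7 CPM in lineage-free comparison cells and at 2.38 to 9.26 CPM in T-gated cells. At least 1 UMI was found in 67.4, 40.1, 69.5 and 52.8% of Siglecf-positive cells, against 2.58 to 10.8% of lineage-free comparison cells and 0.875 to 2.68% of T-gated cells, whose median depth of 4420.5 to 5793 UMIs was greater. Both OVA libraries had lower Ltc4s than their counterparts in Siglecf-positive cells, and comparison cells moved the same way.

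Igfbp6 encodes a binding protein for insulin-like growth factor II. It stood at 499.7, 339.5, 457 and 375 CPM in Siglecf-positive and at 209, 92.5, 126 and 97.6 CPM in lineage-free comparison cells. Gpc3, a membrane-anchored heparan sulfate proteoglycan, was lower in level and stood further apart, at 198, 125, 137 and 80.04 CPM against 15.04, 4.00, 9.12 and 8.05 CPM. T-gated cells had 0.238 to 2.53 CPM of Gpc3. Adamdec1, a secreted metalloprotease of the ADAM family, was at 169, 108, 263 and 102 CPM against 12.6, 1.88, 9.75 and 6.77 CPM. It was carried by fewer of the cells: 15.7, 9.81, 20.8 and 9.92% carried a UMI of Adamdec1, against 0.422 to 1.67% of lineage-free comparison cells and 0.292 to 0.581% of T-gated cells.

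Scimp, a transmembrane adaptor that recruits signalling proteins in antigen-presenting cells, stood at 621, 270.1, 480.1 and 299 CPM against 182, 37.6, 86.2 and 81.8 CPM. Like Ltc4s it was highest in Vehicle and lowest in Vehicle-OVA in both cell sets. Entpd3, an ectoenzyme that splits extracellular nucleotides, was at 250.2, 382, 249 and 347 CPM against 122, 76.6, 90.6 and 121 CPM. Ffar2, a receptor for short-chain fatty acids, was at 216, 238, 175 and 324 CPM against 84.3, 52.6, 43.8 and 102 CPM. Both were higher in Siglecf-positive cells in all 4 libraries, by log2 ratios of 1.03 to 2.30 for Entpd3 and 1.35 to 2.16 for Ffar2. Mmp9, gelatinase B, did not separate the sets in every library: 788, 1854, 953 and 1975 CPM stood against 954, 601, 733 and 1338 CPM, with Vehicle below the comparison and the other libraries above it.

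**Figure D3:**
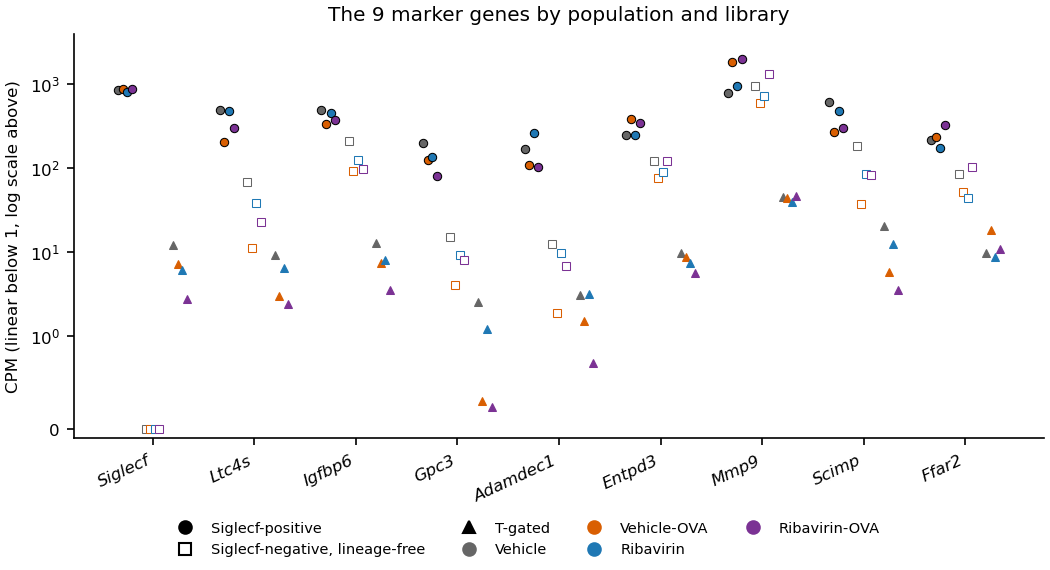
CPM of the 9 marker genes (linear below 1, log scale above) in Siglecf-positive cells (filled circles), lineage-free Siglecf-negative cells (open squares) and T-gated cells (triangles), 1 point per library. All 4 circles lie above all 4 squares for Ltc4s, Igfbp6, Gpc3, Adamdec1, Entpd3, Scimp and Ffar2, while Mmp9 overlaps and Siglecf is set by the rule.

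In the plot of marker genes, Siglecf aside, the lowest circle and the highest square are furthest apart for Adamdec1 and Gpc3. Among markers without overlap they are closest for Scimp and Igfbp6. T-gated cells lie below the circle and the square of the same library for the 8 markers other than Siglecf. The 9 genes lie apart in the genome (GRCm38): Siglecf at chr7:43351341-43359531, Ffar2 at chr7:30818348-30823775, Ltc4s at chr11:50236461-50238616, Scimp at chr11:70790932-70812586, Igfbp6 at chr15:102144362-102149511, Gpc3 at chrX:52272426-52613950, Adamdec1 at chr14:68563380-68582095, Entpd3 at chr9:120539818-120568327 and Mmp9 at chr2:164940780-164955850.

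For every gene the log2 ratio of (CPM + 1) between the cell sets was computed library by library, and a gene was counted when it was past 2-fold in the same direction in all 4. Of 14913 genes tested, 272 were higher (1.82%) and 936 lower (6.28%) in Siglecf-positive than in comparison cells. With scaling by trimmed means, which shifted every ratio by -0.14 to -0.31, the counts were 177 higher and 1216 lower. Against lineage-free comparison cells 299 of 12489 genes were higher (2.39%) and 339 lower (2.71%), and 120 higher and 234 lower genes were shared with the first comparison. These shares are the background for the lists below. Since the cells were gated on the same counts, neither count is a test.

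Beside the markers, the 15 genes furthest above comparison cells included B3galt5, Rcan1, Slco4a1 and Il22ra2. B3galt5, a galactosyltransferase, stood at 52.1, 39.5, 50.4 and 47.6 CPM against 4.59, 3.67, 3.43 and 4.43 CPM in comparison cells. Rcan1, a regulator of calcineurin that is itself induced by calcium signalling, stood at 144, 206, 147 and 160.1 CPM against 18.5, 19.3, 17.3 and 19.9 CPM. Slco4a1, an organic anion transporter, was at 61.7, 84.1, 59.5 and 114 CPM against 8.19, 12.1, 5.79 and 11.9 CPM. Il22ra2 encodes the soluble binding protein that blocks interleukin-22 and was at 16.1, 21.02, 15.8 and 22.9 CPM against 1.76, 1.18, 1.34 and 1.10 CPM. Tdgf1, a co-receptor for Nodal, had log2 ratios of 2.85 to 3.97. Prss2, a trypsin, had 2.78 to 4.58. Nckap5l (2.81 to 3.38) and Gpd1l (2.45 to 2.96) were also among them. All 8 genes just named stood past 2-fold against lineage-free comparison cells too.

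Against lineage-free comparison cells further genes stood out, 4 of which are named here after their values were seen. Cd72, an inhibitory receptor known from B cells, was at 192, 60.5, 141 and 97.2 CPM against 39.5, 10.1, 18.9 and 14.01 CPM. Acadl, the long-chain acyl-CoA dehydrogenase of mitochondrial fat oxidation, was at 397, 144, 253 and 180.1 CPM against 75.01, 40.6, 52.2 and 48.5 CPM. The kinase gene Src and the chemokine gene Cxcl14 were also past 2-fold in all 4 libraries, with log2 ratios of 1.88 to 2.65 and 2.18 to 3.44. Against all comparison cells, Cxcl14 had a median log2 ratio of -0.13 on thinned cells.

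The 15 genes furthest below comparison cells were mostly genes of other cells and included Ms4a7, Mrc1, Ccl8, Ccl12, Slamf9, Aif1, H2-M2, Dab2, Cx3cr1, H2-Aa, Cd4, Mzb1, H2-Eb1 and C3ar1. On thinned cells Dab2, an endocytic adaptor gene, was level, with a median log2 ratio of 0.049. Of the 15, Ms4a7, Ccl8, Ccl12, H2-M2, Cx3cr1, Cd4, Mzb1 and C3ar1 were no longer past 2-fold in all 4 libraries once comparison cells with a lineage gene were left out. Of the 8 macrophage-list genes that were lower against all comparison cells, 2 were lower, Mrc1 among them, against lineage-free ones. The lineage-free set was therefore used for the lists below. Of 8 monocyte genes 6 were lower against it, and of 8 dendritic cell genes 6.

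Retnlg, a resistin-like gene of bone marrow and blood neutrophils, was at 206, 752, 471 and 349.7 CPM in Siglecf-positive against 1662, 3557, 2459 and 4522 CPM in lineage-free comparison cells. Mmp8, neutrophil collagenase, was at 31.3, 79.6, 49.1 and 60.03 CPM against 239, 455, 314 and 909 CPM. In both genes the highest Siglecf-positive library lay below the lowest comparison library. Prok2, Stfa3 and Ifitm6, also chosen after their values were seen, were lower too, with log2 ratios of -3.88 to -2.56, -4.98 to -2.61 and -3.50 to -2.19. Of the 15 genes of the neutrophil list, 0 were higher and 5 lower (Retnlg, Ly6g, Clec4d, Slpi and Wfdc21), while S100a8, S100a9, Csf3r, Cxcr2 and Il1r2 were not past 2-fold in all 4.

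Granule genes are given by class. Of 6 secondary granule genes, made in the bone marrow at the myelocyte stage, 5 were lower: Camp (the cathelicidin precursor) stood at 32.9, 4.46, 329 and 51.5 CPM against 1019, 334, 1398 and 2241, Ngp at 67.99, 63.1, 397 and 185 CPM against 1177, 826, 1638 and 4114, and Lcn2, Chil3 and Cybb were the others. Ltf, lactoferrin, was not, at 141, 1237, 428 and 426 CPM against 917, 546, 1372 and 4735 CPM, and 1 cell held 85.3% of its Siglecf-positive UMIs in Vehicle-OVA. The primary granule genes Mpo, Elane, Prtn3 and Ctsg, made still earlier, were past 2-fold in all 4 libraries in neither direction. Elane, neutrophil elastase, stood at 32.7, 0.637, 44.7 and 0 CPM, and 1 cell held 99.3% of its UMIs in Vehicle and in Ribavirin. In those libraries 1 cell also held all UMIs of Mpo. The 4 primary granule genes summed to 8.92 CPM in Vehicle-OVA and 15.2 CPM in Ribavirin-OVA. The list therefore cannot show whether primary and secondary granule genes differ in these cells.

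Of 16 leukotriene and prostaglandin genes tested against lineage-free cells, 3 were higher (Ltc4s, Ptgs1 and Cysltr1) and 0 lower, and against all comparison cells Alox5 was higher as well. Ptgs1, cyclooxygenase 1, stood at 218, 281, 194 and 328 CPM against 48.1, 23.1, 30.5 and 67.2 CPM. Cysltr1, the receptor for cysteinyl leukotrienes, stood at 108, 75.8, 86.6 and 100.1 CPM against 30.3, 16.4, 19.7 and 28.7 CPM. Alox5, the 5-lipoxygenase that makes leukotriene A4, was at 147, 132, 152 and 144 CPM against 67.98, 40.8, 53.6 and 92.8 CPM, with a log2 ratio of 0.63 in Ribavirin-OVA. Its partner Alox5ap was at 923, 503, 803 and 513 CPM against 857, 809.8, 766 and 770.3 CPM, and Lta4h, which leads to leukotriene B4, at 35.98, 31.8, 39.1 and 48.6 CPM against 37.5, 26.2, 41.1 and 83.4 CPM. Ptgs2, the inducible cyclooxygenase, was at 728, 2238, 1043 and 1821 CPM against 1318, 3880.4, 1408 and 1438 CPM, below the comparison in 3 of 4 libraries.

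Of 19 matrix genes, 3 were higher (Gpc3, Igfbp6 and Adamdec1) and 5 lower. Thbs1, thrombospondin 1, stood at 86.4, 515, 119 and 107 CPM against 302, 1641, 642 and 469 CPM, and the urokinase receptor Plaur was at 107, 373, 198 and 119 CPM against 337, 1281, 733 and 413 CPM. Mmp12, Timp2 and Fn1 were the other three lower genes. Of 11 nucleotide-handling genes Entpd3 was higher, and Entpd1 (CD39) and the adenosine receptor Adora2a were lower. Entpd1 stood at 128, 262, 153 and 133 CPM against 323, 669.6, 411 and 269 CPM, so the paralogs ran in opposite directions. Ffar2 was the 1 higher gene among 10 metabolite, formyl peptide and complement receptors, and Hcar2 and the formyl peptide receptor Fpr1 were lower. Fpr1 was at 20.3, 71.3, 40.6 and 23.8 CPM against 90.8, 282, 146 and 84.6 CPM.

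Among 14 Siglec and other inhibitory receptor genes, Siglecf and Scimp were higher against lineage-free cells and 0 were lower. Siglecf is higher by the rule, so its place in this count is not a result. Siglece, another CD33-related Siglec of mouse neutrophils, was past 2-fold against all comparison cells only, at 354, 384, 335 and 551 CPM against 184, 169, 147 and 215 CPM in lineage-free ones. Siglecf and Siglece are paralogs, but Cd33 was level, at 432, 689, 422 and 635 CPM against 469, 818, 447 and 609 CPM. Of 11 adhesion genes 0 were higher. Itgax, CD11c, was past 2-fold against all comparison cells, and stood at 326, 363, 318 and 435 CPM against 176, 65.3, 119 and 132 CPM in lineage-free ones, a log2 ratio of 0.89 in Vehicle and more elsewhere.

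Chemokine genes tended downward: 5 of 13 were lower (Cxcl3, Cxcl16, Ccl2, Ccl6 and Ccl22) and 0 higher, with a list median of -1.70 against 0.30 over all genes. Cxcl3, a ligand of Cxcr2, stood at 32.5, 659, 134 and 18.1 CPM against 223, 3326, 1098 and 309 CPM. Cxcl2, a related ligand, was not past 2-fold in all 4, at 3620.2, 9449.5, 6204 and 4782 CPM against 8808, 24132, 14380.1 and 5933 CPM. Of 18 cytokine genes 0 were higher and Il6 and Osm were lower. Il1b was at 12337, 15269.6, 12593 and 12797 CPM against 13312, 14879, 12811 and 7276 CPM, with the widest gap in Ribavirin-OVA. Of 21 cytokine receptors the interleukin-1 receptor Il1r1 was higher and Il3ra lower. Il1r1 stood at 39.5, 5.10, 30.2 and 19.1 CPM, against 64.6 to 77.9 CPM in T-gated cells, some of which can transcribe it. The transforming growth factor receptor Tgfbr1 was at 229.9, 366, 268 and 473 CPM against 147, 96.95, 93.03 and 144 CPM.

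Genes of antigen presentation were lower for 5 of 12: H2-Aa, H2-Ab1, H2-Eb1, Cd74 and Ciita. H2-Aa stood at 385, 104, 221 and 120.1 CPM in Siglecf-positive, 2093, 455, 1523 and 957 CPM in lineage-free comparison and 355, 62.2, 277 and 96.1 CPM in T-gated cells, so its level in Siglecf-positive cells was near that of free RNA. Of 15 oxidative burst and redox genes 0 were higher and Cybb, Slc7a11 and Nos2 were lower. Of 31 transcription factors 0 were higher and 4 lower, Fosl1, Rora and Irf8 among them. Glycolysis (22 genes), survival (17), interferon-stimulated (17), lysosome (20) and dissociation stress lists (11) each had 0 higher and 1 lower gene, and the cell cycle list (10) had 0 and 2. Interferon-stimulated genes had a list median of -1.25. Of the stress granule and efferocytosis genes that the study of control and allergen-treated mice followed, 0 of 10 were higher and Axl was lower. G3bp1, the stress granule scaffold, stood at 82.01, 120.4, 90.4 and 151 CPM against 69.3, 61.5, 55.5 and 88.9 CPM. Lrp1, a receptor in the uptake of dying cells, was at 139, 104, 129 and 131 CPM against 58.5, 43.2, 48.9 and 65.1 CPM, past 2-fold in 3 of 4 libraries.

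The way these genes varied with the amount of Siglecf was described on neutrophil-gated cells thinned to 2000 UMIs each, so that depth was equal. They were sorted by the Siglecf UMIs left after thinning: 0, 1, 2, or 3 and more. There were 2375, 694, 348 and 275 cells in Vehicle, 5883, 278, 107 and 91 in Vehicle-OVA, 3693, 559, 257 and 171 in Ribavirin, and 1090, 179, 70 and 68 in Ribavirin-OVA. Shallower cells were left out (1763, 1489, 412 and 427). Because thinning lowers counts, the class at 0 also holds cells that carried Siglecf before it.

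Retnlg and Mmp8 were lower at each step from 0 to 2 Siglecf UMIs in all 4 libraries. In Vehicle, Retnlg went 1901, 226, 51.7 and 27.3 CPM over the 4 classes, and Mmp8 258, 44.7, 4.31 and 7.27 CPM. In Vehicle-OVA, Retnlg went 3701, 1477, 537 and 76.9 CPM and Mmp8 430.0, 223, 56.1 and 21.98 CPM. Cells with 1 Siglecf UMI lay between the others, and in Vehicle-OVA they kept more Retnlg than in the other libraries. Mmp8 stood at 309, 58.1, 3.89 and 5.85 CPM in Ribavirin and 866, 67.04, 7.14 and 14.7 CPM in Ribavirin-OVA. Hdc, the histamine-making enzyme, had smaller steps, with 1386, 628, 449.7 and 327 CPM in Vehicle.

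Ltc4s and Ptgs1 were higher at each step over the same classes in all 4 libraries. Ltc4s went 131, 445, 529 and 644 CPM in Vehicle and 15.2, 128, 248 and 297 CPM in Vehicle-OVA. Ptgs1 went 70.3, 213, 246 and 253 CPM in Vehicle and 83.9, 246, 357 and 382 CPM in Ribavirin-OVA. Siglece was higher at every step in each library too, for example 195, 327, 359.9 and 421 CPM in Ribavirin. Scimp was so in Vehicle, Vehicle-OVA and Ribavirin, but in Ribavirin-OVA it went 119, 327, 300 and 228 CPM.

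Some genes ran one way without OVA and another with it. Cxcr4, a receptor that rises as neutrophils age, went 800.2, 586, 435 and 347 CPM in Vehicle and 669, 606, 449 and 354 CPM in Ribavirin. In the OVA libraries it went 693, 1095, 1388 and 1044 CPM and 894, 1221, 1550 and 956 CPM. Il1r2 had the same split: 1444, 1197, 1000 and 840 CPM in Vehicle and 1334, 2092, 2336 and 1868 CPM in Vehicle-OVA. S100a8 was lower at 3 and more Siglecf UMIs than at 0 in all 4, with 27537, 21146, 17424 and 18951 CPM in Vehicle and 24327, 13595, 7425 and 5692 CPM in Vehicle-OVA. Epx was at 0 UMIs in every class.

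**Figure D4:**
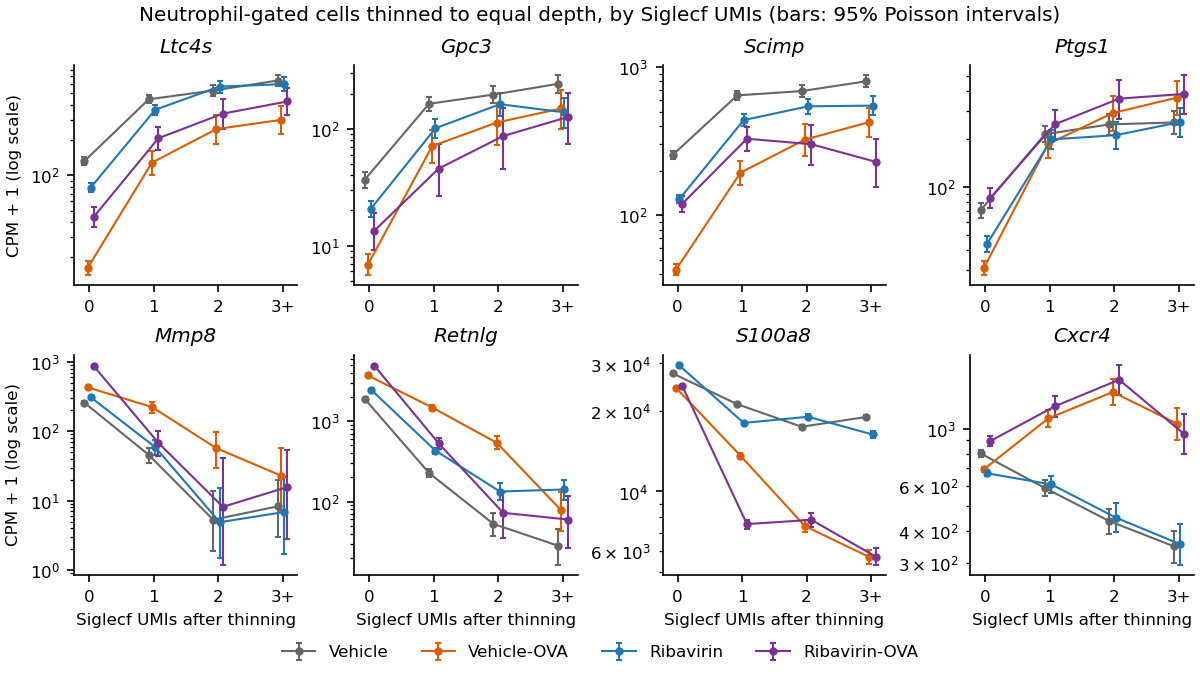
CPM + 1 (log scale) of 8 genes in neutrophil-gated cells thinned to 2000 UMIs, against the number of Siglecf UMIs left after thinning, 1 line per library with 95% Poisson intervals. Ltc4s, Gpc3 and Ptgs1 are higher and Mmp8 and Retnlg lower at 3 and more than at 0 Siglecf UMIs, while Cxcr4 declines in Vehicle and Ribavirin and peaks at 2 Siglecf UMIs in both OVA libraries.

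The line plots by Siglecf class show the OVA and non-OVA libraries parting in S100a8 and Cxcr4, where the lines of the same kind of library lie close together at 3 and more Siglecf UMIs. For Ltc4s the Vehicle-OVA line is lowest in every class.

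The OVA comparison within Siglecf-positive cells was measured in 2 pairs that share no library. Of 8741 genes, 778 were past 2-fold higher (8.90%) and 739 lower (8.45%) in Vehicle-OVA over Vehicle, and 746 were higher (8.53%) and 447 lower (5.11%) in Ribavirin-OVA over Ribavirin. Genes past 2-fold in both pairs numbered 262 higher (3.00%) and 255 lower (2.92%), and 39 were past it in opposite directions. The medians over all genes were 0.10 and 0.26, and scaling by trimmed means shifted every ratio by -0.18 and -0.35, to 551 higher and 1080 lower and to 259 higher and 885 lower. In 1653 genes 1 cell held 20% or more of the Siglecf-positive UMIs of a library, and without them 160 were higher and 148 lower in both pairs. There was 1 library a group, so the counts have no replicate check.

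The 10 genes ranked highest with OVA were Serpina3n, Clca3a2, Gpx6, Clu, Fetub, Bpifb3, Rgs5, Kcnj15, Atp6v0d2 and Arg1. For the first 8 of them 1 cell held 72.1% or more of the UMIs in each OVA library, up to 99.6 and 98.6% for Gpx6. Further genes, each without such a cell, were chosen after their values were seen. Ctsb, cathepsin B, stood at 302, 929, 261 and 819 CPM, log2 ratios of 1.62 and 1.64. Psap, the saposin precursor, stood at 328, 867, 306 and 917 CPM (1.40 and 1.58). Lgmn, a lysosomal cysteine protease, stood at 21.5, 115, 22.4 and 104 CPM. Lineage-free comparison cells had log2 ratios of 1.59 and 1.58 for Ctsb and 0.77 and 1.60 for Psap.

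Il1rn, the interleukin-1 receptor antagonist, stood at 321, 2236, 446 and 1165 CPM (2.80 and 1.38), against log2 ratios of 3.23 and 0.45 in lineage-free comparison cells. Dusp5, a phosphatase that turns off ERK, stood at 191, 747, 230.0 and 632 CPM (1.96 and 1.45). Havcr2, the inhibitory receptor TIM-3, stood at 65.7, 225, 69.9 and 208 CPM (1.76 and 1.56). Bcl2l11, the death-promoting BIM, stood at 95.8, 334, 109 and 307 CPM (1.79 and 1.48). The complement gene C3 stood at 63.5, 266, 62.7 and 206 CPM and Prnp at 29.7, 151, 17.6 and 109.6 CPM. In each of these 6 genes the OVA libraries did not overlap the others. The genes were named for their values, so this describes the choice. The share of all genes with such an order was not counted.

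Cxcr4 and Mmp9 were higher too. Cxcr4 stood at 406, 1015, 365 and 1030.0 CPM (1.32 and 1.49), while lineage-free comparison cells had 754, 603, 503 and 641 CPM (-0.32 and 0.35). Mmp9 stood at 788, 1854, 953 and 1975 CPM (1.23 and 1.05), with log2 ratios of -0.66 and 0.87 in those cells. Cxcr4 thus differed between OVA and non-OVA libraries by more than 2-fold in Siglecf-positive cells and by less than that in Siglecf-negative cells. For Mmp9, a gene of the rule, the ribavirin-pair ratios of 1.05 and 0.87 lay close together on either side of 2-fold. The difference between the cell sets was not tested. Egr1 (1.67 and 1.16), Pim1 (1.20 and 1.03), Bhlhe40 (1.28 and 1.17) and Maff (1.58 and 1.02) were the transcription and survival genes past 2-fold higher in both pairs beside Bcl2l11. Scaling by trimmed means shifted ratios by -0.35 in the ribavirin pair, which puts Egr1, Pim1, Bhlhe40, Maff and Mmp9 under 2-fold there. Cebpe, a transcription factor of granulocyte maturation, was past 2-fold lower in both, at 33.6, 10.2, 45.4 and 17.2 CPM. Egr1 is also an early stress gene, and of 11 dissociation stress genes 5 and 3 were higher and 0 and 1 lower.

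S100a8 and S100a9 were lower with OVA in Siglecf-positive cells. S100a8 had log2 ratios of -1.28 and -1.68 and S100a9 of -1.17 and -1.62, from the levels given above. In lineage-free comparison cells S100a8 stood at 23376, 23950, 26348 and 24135 CPM, with ratios of 0.03 and -0.13, and S100a9 at 38227, 33621, 47615 and 30385 CPM (-0.19 and -0.65). Lyz2, lysozyme, again chosen on its values, was lower as well, at 1417, 239, 1411 and 253 CPM (-2.56 and -2.47) in Siglecf-positive cells, and so was Apoe at 2042, 351, 1549.8 and 423 CPM (-2.54 and -1.87). These last 2 moved in comparison cells also, with ratios of -1.99 and -0.63 for Lyz2 and -1.69 and -0.77 for Apoe. T-gated cells had 350.1, 88.4, 353 and 92.6 CPM of Lyz2 and 329, 129, 307 and 176 CPM of Apoe, lower in both OVA libraries as well. Hp, haptoglobin, stood at 1041, 325, 825 and 314 CPM. Ccl5, a T cell and NK cell chemokine, stood at 144, 6.37, 145 and 15.2 CPM against 1911, 1131, 1360.1 and 776 CPM in T-gated cells.

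The 10 genes ranked lowest with OVA were Elane, Mpo, Gm5938, Fcnb, Hist1h1b, Ctsg, Ccl5, Cxcl9, Hist1h1e and Camp. With 1 Siglecf UMI required in place of 2, Camp and Cxcl9 turned direction in the ribavirin pair and Gm5938 in the vehicle pair. Of Mpo 1 cell held all 58 UMIs in Vehicle and all 46 in Ribavirin. Hist1h1e, a linker histone gene, stood at 88.3, 12.7, 97.98 and 9.53 CPM. Ribosomal protein genes, which are short and abundant, were low. Of 81 ribosomal protein genes 52 and 31 were lower in the 2 pairs, with medians of -1.21 and -0.89 and of -1.71 and -0.63 in lineage-free comparison cells. Of 77 Nduf, Uqcr, Cox and Atp5 genes of the respiratory chain 34 and 19 were lower, with medians of -0.97 and -0.63. With genes split by length into 4 equal classes, the shortest had medians of -0.42 and -0.18 and the longest 0.36 and 0.46, and the part that capture or RNA quality plays in this was not tested.

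**Figure D5:**
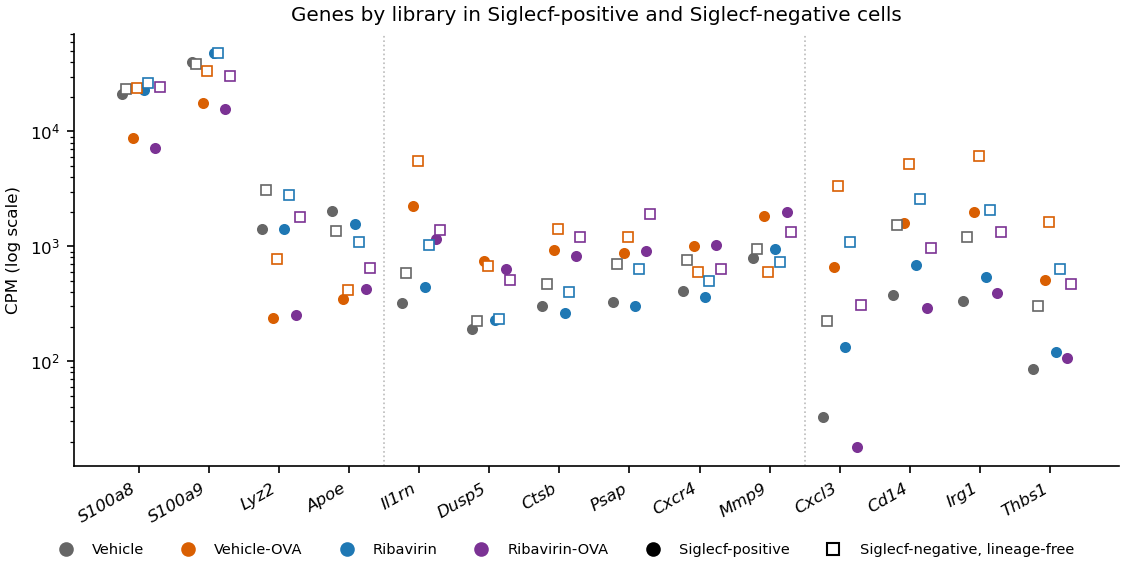
CPM (log scale) of 14 genes in Siglecf-positive (filled circles) and lineage-free Siglecf-negative cells (open squares), 1 point per library. S100a8 to Apoe are lower and Il1rn to Mmp9 higher in both OVA libraries of Siglecf-positive cells, and Cxcl3 to Thbs1 are high in Vehicle-OVA alone.

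In the plot of genes by library, filled circles of S100a8 and S100a9 for the 2 OVA libraries drop away from a tight row of open squares. For Cd14, Irg1 and Thbs1 the filled and open points keep the same order of libraries at different heights, with Vehicle-OVA at the top.

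Glycolysis and hypoxia genes were higher for 8 of 21 in the vehicle pair and 4 in the ribavirin pair and lower for 0, with Egln3, P4ha1 and Ero1l in both. Egln3, the prolyl hydroxylase induced by low oxygen, stood at 24.8, 123, 27.1 and 63.8 CPM. Lysosome genes were higher for 3 and 4 of 18 and lower for 0. Interferon-stimulated genes were higher for 8 and 5 of 17, with 0 and 1 lower. Rsad2, viperin, stood at 55.1, 337, 71.5 and 242 CPM, and 1 cell held 57.5% of its UMIs in Ribavirin-OVA. Oasl1, an interferon-induced antiviral gene, stood at 14.3, 49.7, 11.7 and 35.3 CPM. Both genes lay higher in both OVA libraries. Transcription factors were higher for 7 and 5 of 28, with 2 and 2 lower, and antigen presentation genes were higher for 1 and 0 of 11 and lower for 5 and 2. The background over all genes, for comparison, was 8.90 and 8.53% higher.

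Chemokine genes were higher for 6 of 11 and lower for 1 in the vehicle pair, with a median of 1.35, and higher for 1 and lower for 6 in the ribavirin pair, with a median of -1.02. Cxcl2 had the levels given above and Ccl4, an inflammatory chemokine, stood at 1019, 3059, 1384 and 1132 CPM. Cytokine genes were higher for 9 and lower for 0 of 15 in the vehicle pair, and 2 and 2 in the ribavirin pair. Tnf stood at 115, 256, 123 and 160.1 CPM and Osm at 102, 433, 154 and 165 CPM, both highest in Vehicle-OVA. Metabolite, formyl peptide and complement receptors were higher for 4 of 9 in the vehicle pair and for 0 in the ribavirin pair, with medians of 0.78 and 0.66. Whether the pairs differ was not tested, since each is 1 library against 1.

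Without allergen, ribavirin and vehicle differed in few genes of Siglecf-positive cells: 106 of 8741 were higher (1.21%) and 43 lower (0.492%) in Ribavirin over Vehicle. The highest were 5430401F13Rik, Gm6619, Mal, Lcn3 and Obp2b. Lcn3 and Obp2b, with Obp2a (outside the 5 and chosen on its values), encode secreted lipocalins of nasal glands. Obp2a stood at 30.8, 12.1, 756 and 198 CPM in Siglecf-positive cells and at 49.6, 11.7, 6618 and 658 CPM in lineage-free comparison cells, and T-gated cells had 548, 6.30, 1228 and 109 CPM. The lowest were Klra4, Il4i1, 3830403N18Rik, Saa3 and Vipr1. Saa3, a serum amyloid A gene of inflamed tissue, stood at 258, 297, 55.1 and 79.1 CPM, lower in both ribavirin libraries.

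With allergen more genes passed 2-fold: 362 were higher (4.14%) and 302 lower (3.45%) in Ribavirin-OVA over Vehicle-OVA. The OVA sums were smaller, at 1569921 UMIs in Vehicle-OVA and 1049459 in Ribavirin-OVA, against 4280197 in Vehicle and 3174012 in Ribavirin. Smaller sums have larger counting error, and its part in these counts was not tested. The highest 5 were Prss33, Tac4, Bpifb9b, Gzma and Folr1, of which Gzma stood at 24.1, 1.91, 42.2 and 99.1 CPM with 95.2% of its Ribavirin-OVA UMIs in 1 cell. Serpinb2, Cxcl3, Cldn2 and Csf3 were among the lowest 5. The next 4 genes and Thbs1 were chosen after their values were seen, among genes in which no cell held 20% or more of the UMIs of a library. Cd14, the endotoxin co-receptor, stood at 375, 1588, 684 and 291 CPM, against 1542, 5206, 2585 and 973 CPM in lineage-free comparison cells. Irg1, which makes itaconate, stood at 336, 1972, 540.3 and 394 CPM against 1215, 6138, 2082 and 1331 CPM, and Thbs1 had the levels given above. Sgms2, a sphingomyelin synthase, stood at 10.05, 106, 24.3 and 16.2 CPM. Il1f9, interleukin-36 gamma, stood at 35.3, 564, 95.5 and 164 CPM, between the other libraries and Vehicle-OVA. All 5 genes were highest in Vehicle-OVA, and comparison cells had the same order at the top for Cd14 and Irg1.

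Other cell states crossed with these cells. Csf3, granulocyte colony-stimulating factor, had 0, 137, 20 and 2 UMIs in Siglecf-positive cells, or 0, 87.3, 6.30 and 1.91 CPM, against 2.40, 318, 11.5 and 4.67 CPM in lineage-free comparison cells. Cxcr2, one of the genes that set the comparison cells, did not separate the sets, with log2 ratios of -0.22, 0.37, -0.09 and 0.29. Of genes known from eosinophils, Ear2 stood at 2.57, 1.91, 1.89 and 8.58 CPM against 18.6, 9.91, 12.7 and 49.6 CPM and Alox15 at 0.234, 1.27, 0.63 and 1.91 CPM against 0.534, 5.77, 5.07 and 19.2 CPM, so neither was raised in Siglecf-positive cells.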

How the data were processed

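Single-cell RNA was measured with 10x droplets in CD45+ cells of nasal mucosa, 1 library for each of 4 groups. The authors deposited raw UMI counts per gene and barcode (27998 genes), made with Cell Ranger 5.0.0 on mm10 per the submitters' processing notes, which name no role for either. Cells were filtered, gated and summed as described in the report, and sums were divided by their total to give CPM. Genes with at least 50 UMIs over the sums compared were used, and ratios were log2 of (CPM + 1), which understates the change of low genes. Past 2-fold is a fixed size and not a test, and the script was tested on simulated data. Exact 95% Poisson, binomial and conditional binomial intervals cover counting error only. No file columns were left unused. Doublets were called with scrublet (scanpy 1.11.5) at an expected rate of 0.4% per 1000 barcodes, and marked cells were kept. Trimmed-mean factors came from edgeR 4.0.16 in R 4.3.3. Python 3.11.15, numpy 2.4.6, scipy 1.17.1 and pandas 2.3.3 did the rest.

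The members and the 38 gene lists were chosen with earlier results of these data known. Genes named were those of the rule and the 9 markers, list members at the extremes of ratio or level, the 15 furthest above and below comparison cells in all 4 libraries, the 10 furthest with OVA in both pairs, and the 5 furthest in each ribavirin comparison. Some genes the rule picks are not reported here. Others are said to have been chosen after their values were seen. T-gated cells had at least 3 UMIs of Cd3e and Cd3g, macrophage-gated cells at least 10 of C1qa, C1qb and C1qc. Alternatives covered depth thinning, mitochondrial and Siglecf thresholds, the UMI minimum, the pseudocount, scaling, the comparison set and leaving out each library.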

Additional observations from a re-analysis of the deposited data

Results flagged for a closer look

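Of the 39 genes past 2-fold in opposite directions in the 2 OVA pairs, 6 belong to the gene lists. The difference between the pairs was not tested. Csf3 had a log2 ratio of 6.46 in the vehicle pair and -1.33 in the ribavirin pair, from 0, 137, 20 and 2 UMIs, and Cxcl3 had 4.30 and -2.82, from 139, 1034, 424 and 19 UMIs. Without the cells over 3 times the median depth they were 6.13 and -1.34 for Csf3 and 3.94 and -2.77 for Cxcl3. Set against the floor of 3 counts in Vehicle, the measured Csf3 level in Vehicle-OVA was 124.5-fold higher, which leaves out the counting error of its 137 UMIs. In the ribavirin pair the ratio of Csf3 was 0.302 with a 95% counting interval of 0.0343 to 1.25, which spans equal levels. Gzma had -3.11 and 1.21, from 103, 3, 134 and 104 UMIs, and 1 cell held 95.2% of those in Ribavirin-OVA. Its ratio in the vehicle pair was 0.0794 (0.0161 to 0.239). Lcn2 had 1.20 and -1.63, and 0.21 and -1.94 without the deep cells. Hspb1 had 3.33 and -1.10, and -0.58 and 1.03 without the deep cells, so both directions turned. Timp3 had 2.00 and -5.69, from 5, 12, 161 and 0 UMIs, and 0.79 and -1.59 without the deep cells, and 1 cell held 84.5% of its UMIs in Ribavirin, 75% in Vehicle-OVA and all 5 in Vehicle.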

How the results depend on the processing

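No paired analysis was possible because each group is 1 library and the labels give no replicate numbers shared between groups. The log2 ratio of the share of Siglecf-positive cells in the vehicle pair was -0.80 with 1 Siglecf UMI required, -0.57 on thinned cells and -2.14 among neutrophil-gated cells. In the ribavirin pair it was -0.15 with mitochondrial UMIs under 5%, -0.14 among neutrophil-gated cells and 0.14 on thinned cells. Genes higher than in comparison cells numbered 177 with trimmed-mean scaling and 283 to 428 with 1 library left out, 428 being the count without Vehicle, and 394 on thinned cells, of which 43 were among the 272. Genes lower numbered 357 on thinned cells, of which 128 were lower on all UMIs too, 339 against lineage-free cells, 1840 and 441 with pseudocounts of 0.1 and 5 CPM, and 1033 to 1241 with 1 library left out. For the vehicle pair, genes higher numbered 263 on thinned cells, 452 with a minimum of 200 UMIs, 1700 with a minimum of 1 UMI and 512 without genes in which 1 cell held 20% of the UMIs, and genes lower numbered 275, 462, 1192 and 438, with 462 also at a pseudocount of 5. For the ribavirin pair, genes higher numbered 272, 386 and 1523 under the first 3 of these, 426 at a pseudocount of 5 and 259 with trimmed-mean scaling. Genes lower in it numbered 288, 253 and 938, then 273 and 885, and 209 without genes carried by 1 cell. The cause of these moves was not tested. Leaving out deep cells, the denominator and the genes carried by 1 cell were added after seeing the data. Of 3742 alternative values of named genes, 3123 kept their place, 610 moved by more than the spread between libraries or the counting interval and 9 turned direction. Against comparison cells on thinned cells Dab2 was at 0.049 and Cxcl14 at -0.13. With 1 Siglecf UMI required the ribavirin pair gave 0.99 for Camp, 0.48 for Cxcl9, -0.30 for Gzma and 0.032 for Lcn2, and the vehicle pair 1.10 for Gm5938. Csf3 was at 0.22 in the ribavirin pair with 3 Siglecf UMIs required, and Hspb1 at 0.23 as a mean over cells.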
